A study of Homo sapiens with 2 samples.

Results

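Fatty acid oxidation was examined at the mRNA level in Huh7 cells with and without knockdown of BRF2, a subunit of an initiation factor of RNA polymerase III. The genes examined were 29 genes picked by symbol for their roles in the pathway, out of 61541 genes in the deposited table, and each symbol matched 1 row. The list holds the long-chain acyl-CoA synthetases, the carnitine shuttle, the enzymes of mitochondrial and peroxisomal oxidation, the transcription factor PPARA and its coactivator PPARGC1A (PGC1A). It was drawn up under the heading of oxidation and ketone synthesis, but no member is an enzyme that makes ketone bodies, so some of those enzymes are given separately. Huh7 is an established human hepatocellular carcinoma cell line. A culture given control siRNA (Huh7-NC) was compared with one given siRNA that targets BRF2 (Huh7-si), with 1 library of total RNA in each of the 2 groups. Both groups were the same cell line with no other allele or agent named in the labels, and which of the study's siRNAs against BRF2 was sequenced is not given in the sources used here.

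Long-chain fatty acids are first joined to coenzyme A by acyl-CoA synthetases, and are then carried into mitochondria as carnitine esters. Inside, each turn of beta-oxidation removes an acetyl unit through a dehydrogenase, a hydratase, another dehydrogenase and a thiolase, and the first of these steps passes electrons to the electron transfer flavoprotein. In liver, part of the acetyl-CoA made is turned into ketone bodies. PPARA switches on many of these genes in fasting, PPARGC1A strengthens its action, and AMPK, the kinase the study turned to, favors entry of fatty acids into mitochondria by lowering malonyl-CoA.

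The table lists estimated reads for every gene, together with TPM, a level that takes account of both gene length and depth and so can be compared between genes. Depth was 22852648 estimated reads for Huh7-NC and 22089016 for Huh7-si, and paired values are given in that order throughout. Changes are log2 ratios of CPM (reads scaled to the library's total), Huh7-si over Huh7-NC, with an exact 95% Clopper-Pearson interval. With 1 library in each group there is no replicate check and no p-value is given, and every interval covers counting error alone. As a check of the labels, BRF2 had 1281 and 364 reads, a log2 change of -1.77 (-1.94 to -1.60) and a level 70.6% lower. The hepatocyte genes ALB (3957 and 4077 TPM) and AFP (3391 and 4014 TPM) were abundant in both libraries, while of 4 blood and immune markers CD3E and HBB had no reads in either, PTPRC had 5 and 1, and CD68 had 235 and 244. Of 3 cholangiocyte markers, KRT19 had 3973 and 3334 reads, EPCAM 769 and 786 and KRT7 0 and 3. Of 3 endothelial markers, PECAM1 had 60 and 63 reads, VWF 1 and 3 and KDR none. A count of 0 allows up to 3 reads, or 0.131 and 0.136 CPM. All 9 hepatocyte markers were present, at 76.6 to 3957 TPM in Huh7-NC and 107 to 4077 TPM in Huh7-si. Of 4 stromal markers, all had more reads after knockdown, COL1A1 with 76 and 229, COL3A1 with 19 and 44, PDGFRB with 158 and 218 and ACTA2 with 2 and 7, and their summed level was 5.19 and 9.81 TPM. Their part in the results was not tested.

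Transcripts of the oxidation enzymes took a slightly smaller share of reads after BRF2 knockdown, and the coactivator gene PPARGC1A took a larger one. Of the 29 genes, 19 had a lower CPM in Huh7-si and 10 had a higher CPM, while with TMM scaling 23 were lower and by TPM 15 were. PPARGC1A alone was at least 2-fold higher with an interval that left out no change, against 12.5% of the 17921 genes with at least 10 reads over both libraries. No member was at least 2-fold lower, against 1.16% of all genes. The members are all protein-coding. Of the 14088 protein-coding genes with at least 10 reads, 1232 were at least 2-fold higher and 118 lower. At 1.5-fold, PPARGC1A and ACSL5 were higher (all genes 23%) and ECHS1 was lower (all genes 3.84%).

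Small differences were resolved by the depth of most members. Among the 28 members with at least 100 reads over both libraries, 18 were lower beyond counting error and 6 were higher. Of the 12978 genes with at least 100 reads, 26.1% were lower and 45.9% higher. Such calls depend on depth, and the members were deeper than most genes. Their median reads were 1196 and 949, against 285 and 334 for all genes with at least 10 reads. The shares are thus not at like depth, and the part of depth in them was not tested. The median log2 change of the 29 genes was -0.19, and that of all genes with at least 10 reads was 0.21 (protein-coding genes 0.15). Of the members, 23 lay below the median of all genes. By the TPM values 23 did, with a pseudocount of 1 CPM 22, and with no filter on low counts 25. TMM, median-of-ratios and upper-quartile scaling move every gene by the same amount, so they cannot change this count and say nothing about it. The median itself was -0.39 with TMM scaling and -0.0048 by TPM, and the sign of a small change in a member can depend on the scaling. In bulk RNA of a cell population, a lower level in each cell and fewer cells with the transcript cannot be told apart.

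**Figure D1:**
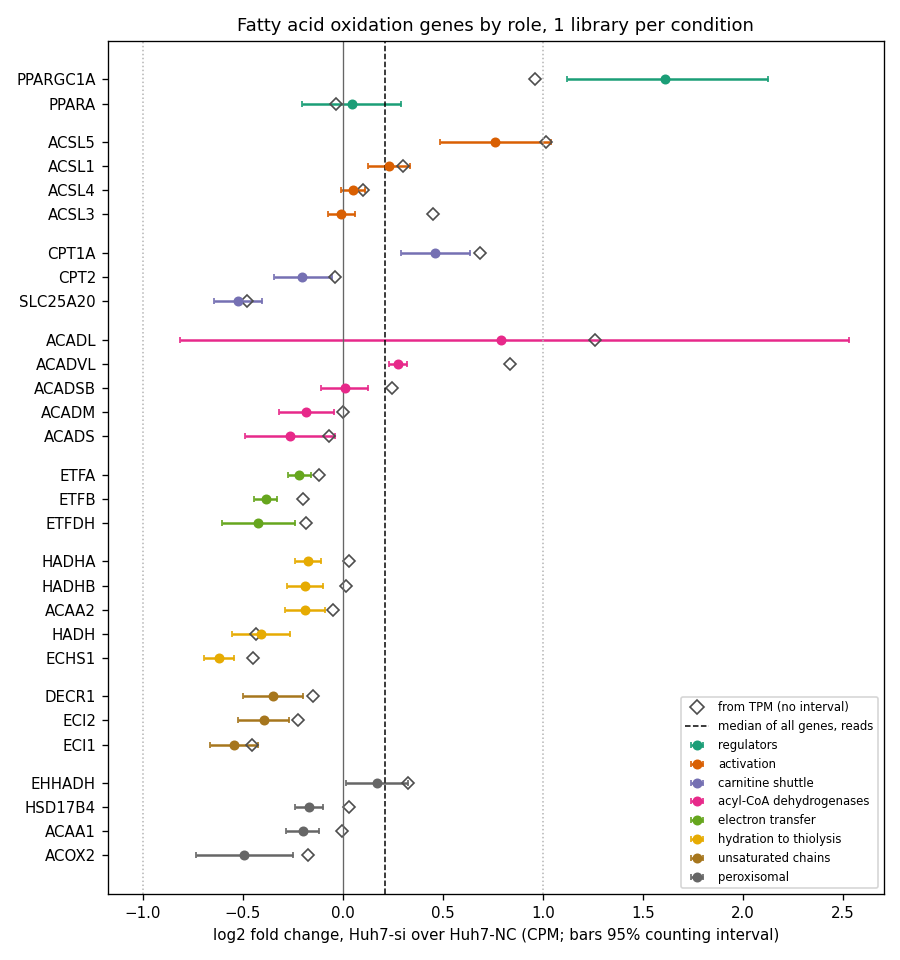
Log2 change of CPM in Huh7-si over Huh7-NC for each of the 29 genes, ordered by role, with 1 library in each group. Filled points are ratios of reads with 95% counting intervals, open diamonds are ratios of TPM, the dashed line is the median of all genes (0.21) and the dotted lines mark 2-fold. Only PPARGC1A (1.61) lies beyond the dotted line with its whole interval, and its diamond (0.96) does not, while the electron transfer, hydration to thiolysis and unsaturated-chain genes all have filled points below 0.

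The regulators were examined first. PPARGC1A encodes PGC1A, a coactivator that raises mitochondrial biogenesis, oxidation and gluconeogenesis. It had 46 and 136 reads, or 2.01 and 6.16 CPM, a 3.06-fold difference and a log2 change of 1.61 (1.12 to 2.13). This was the highest ratio of the 29 genes on the scale of reads. Its deposited TPM values were 0.76 and 1.48, a log2 change of 0.96, which is under 2-fold. The reads counted per unit of TPM were 60.5 and 91.9 for this gene, a log2 difference of 0.60, where protein-coding genes had a median of -0.23. The PPARGC1A difference thus had the same direction by reads and by TPM but not the same size, and the cause was not tested. PPARA encodes the nuclear receptor that responds to fatty acids. It had 277 and 276 reads and a log2 change of 0.04 (-0.20 to 0.29), a difference within counting error.

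RefSeq lists more than 1 start for PPARGC1A, and the bases before 2 of them are shown because this was the member with the largest difference. Both lie on the minus strand of GRCh38.p14, and each sequence holds the 250 bases before a start. Capitals mark the E-box CACGTG.

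Start within the GENCODE gene, chr4:23881102-23881351: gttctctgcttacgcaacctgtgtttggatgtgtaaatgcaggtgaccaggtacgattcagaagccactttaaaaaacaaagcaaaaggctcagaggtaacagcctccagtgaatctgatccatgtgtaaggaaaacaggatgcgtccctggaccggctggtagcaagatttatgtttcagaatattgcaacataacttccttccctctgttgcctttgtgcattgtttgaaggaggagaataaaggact

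Distal start, chr4:24472906-24473155: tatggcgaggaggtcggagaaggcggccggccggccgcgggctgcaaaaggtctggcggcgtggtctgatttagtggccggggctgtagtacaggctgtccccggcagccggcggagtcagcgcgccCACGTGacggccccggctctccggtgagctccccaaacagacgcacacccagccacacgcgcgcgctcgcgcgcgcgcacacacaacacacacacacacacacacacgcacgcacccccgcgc

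The first sequence has a GC content of 44% and the distal sequence 70.8%. The distal start lies outside the PPARGC1A gene of GENCODE release 29, which runs from 23755041 to 23904089 on chromosome 4 of GRCh38. The table gives 1 value per gene, so reads from the starts cannot be told apart. Motifs were searched on both strands of RefSeq windows of 250 bases before and 50 bases after each start, of which 35 belonged to 24 of the members. The direct repeat AGGTCANAGGTCA, the exact consensus bound by PPARs with RXR, was in none of the 35 and in 0.0228% of all 35116 windows. The hexamer AGGTCA, which is part of that repeat, was in 1 window, of ACSL5, and in 13.8% of all windows. The E-box was in 1 window of the members, the distal one of PPARGC1A, and in 7.26% of all windows. The GC box GGGCGG was in 24 of the 35 windows (68.6%) and in 45.0% of all windows. All windows were counted whether or not their genes had reads here, and the part of expression in this contrast was not tested. These 24 windows belong to 20 genes and are not all separate sequence. The windows of HADHA and HADHB share 194 bases that hold a GC box. The sequence AAGGTCA, bound by estrogen-related receptors and itself holding AGGTCA, was in none of the 35 and in 3.92% of all windows. The CCAAT box was in 6 of the 35 (17.1%) and in 34.6% of all windows. The cAMP response element TGACGTCA was in none of the 35 and in 1.85% of all windows. For the direct repeat, AAGGTCA and TGACGTCA, 35 windows are too few for an absence to set the members apart from other genes. These are matches of letters and not measured binding.

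Fatty acid activation was examined through 4 long-chain acyl-CoA synthetases. With total reads, none of these genes was lower beyond counting error. With TMM scaling ACSL5 was at 0.56, ACSL1 at 0.03, ACSL4 at -0.15 and ACSL3 at -0.21, so this statement depends on the scaling. ACSL5, which is abundant in intestine and liver, had 177 reads against 290 after knockdown, with a log2 change of 0.76 (0.49 to 1.04), with TPM values of 2.94 and 5.94. A gene on the opposite strand, ZDHHC6, overlaps exons of ACSL5 and had 903 and 1033 reads, and the strandedness of the libraries is not given in the sources used here. ACSL1, a main synthetase of liver and fat, had 1352 and 1533 reads and a log2 change of 0.23 (0.12 to 0.34). ACSL4, which prefers arachidonic acid, had 4364 and 4369 reads and a log2 change of 0.05 (-0.01 to 0.11). It was the most abundant of the family per length, at 58.7 and 63.0 TPM. ACSL3, which is linked to lipid droplets, had 3748 and 3605 reads and a log2 change of -0.01 (-0.07 to 0.06), within counting error, although its TPM values were 41.0 and 56.0. Among the 5 synthetases including ACSL6, which is a gene mostly of brain, ACSL4 made up 46.3% of the family's TPM in Huh7-NC and 40.6% in Huh7-si, ACSL3 32.3% and 36.1%, and ACSL5 2.32% and 3.83%.

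The carnitine shuttle genes differed in direction. CPT1A, the liver form of the enzyme that makes acylcarnitine at the outer membrane and the step that malonyl-CoA blocks, had 486 reads against 647 after knockdown, with a log2 change of 0.46 (0.29 to 0.63), with 5.22 and 8.40 TPM. SLC25A20, the carrier that takes acylcarnitine across the inner membrane, had 1410 and 949 reads and a log2 change of -0.52 (-0.64 to -0.40), with 51.8 and 37.2 TPM. CPT2, which returns the acyl group to coenzyme A inside, had 848 and 713 reads and a log2 change of -0.20 (-0.35 to -0.06). The first gene of the shuttle was thus higher and the later genes lower on the scale of reads. CPT2 had 1.74 times the reads of CPT1A in Huh7-NC and 1.10 times in Huh7-si. The difference between their log2 changes was -0.66, with an approximate 95% counting interval of -0.89 to -0.44. CZIB overlaps CPT2 on the opposite strand and had 517 and 434 reads. These signs held in the alternative scalings, though CPT2 came to -0.04 by TPM.

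**Figure D2:**
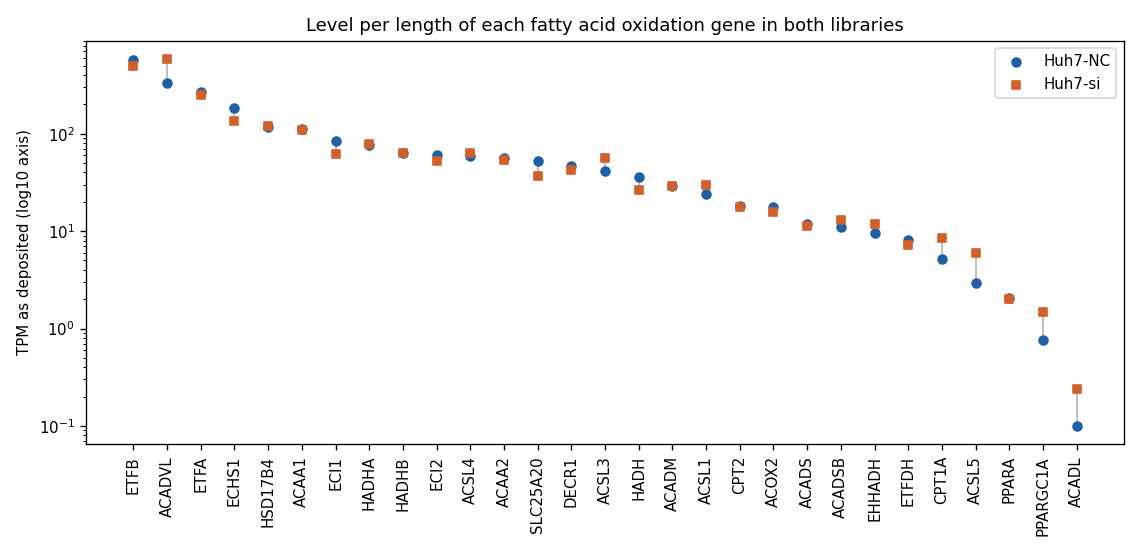
Deposited TPM of each gene in Huh7-NC (circles) and Huh7-si (squares) on a log10 axis, ordered by the level in Huh7-NC, with 1 library in each group. ETFB (573 TPM) and ACADVL (328 TPM) are highest in Huh7-NC, ACADVL has the widest upward gap among the abundant genes (584 TPM in Huh7-si), and ACADL is lowest (0.10 and 0.24 TPM).

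The acyl-CoA dehydrogenases begin each turn of oxidation, and each prefers a chain length. ACADVL, for very long chains, was the member with the most reads, 8018 against 9385, with a log2 change of 0.28 (0.23 to 0.32). By TPM it went from 328 to 584, a log2 change of 0.84, so the sizes of the difference on both scales diverged while the direction did not. Reads per unit of TPM for ACADVL were 24.5 and 16.1. The gene DLG4 overlaps ACADVL on the opposite strand and had 78 and 102 reads. ACADM, for medium chains, had 941 and 801 reads and a log2 change of -0.18 (-0.32 to -0.05), with 28.7 TPM in each library. RABGGTB shares exon sequence with ACADM on the same strand and had 1621 and 1612 reads. ACADS, for short chains, had 370 and 298 reads and a log2 change of -0.26 (-0.49 to -0.04). ACADSB, for short branched chains from isoleucine, had 1195 and 1162 reads and a log2 change of 0.01 (-0.11 to 0.13), within counting error. ACADL, for long chains, was close to absent with 6 and 10 reads, and its interval of -0.82 to 2.53 resolves no direction. ACADVL made up 86.4% of the TPM of these 5 genes in Huh7-NC and 91.6% in Huh7-si, and ACADM 7.57% and 4.50%.

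The electron transfer genes had fewer reads in Huh7-si in all 3 cases. ETFA and ETFB encode the subunits of the flavoprotein that takes electrons from the acyl-CoA dehydrogenases, and ETFDH the enzyme that passes them to ubiquinone. ETFA had 5451 reads against 4533 after knockdown, with a log2 change of -0.22 (-0.27 to -0.16). ETFB had 5921 and 4381 reads and a log2 change of -0.39 (-0.44 to -0.33). ETFDH had 591 and 426 reads and a log2 change of -0.42 (-0.61 to -0.24). Its exons overlap those of PPID (1486.5 and 1204 reads) and C4orf46 (472 and 419 reads) on the opposite strand. With strandedness not given, the part of these reads in ETFDH is uncertain. ETFB was the most abundant member per length in Huh7-NC (573 TPM) and was at 499 TPM in Huh7-si. The log2 change of ETFB less that of ETFA was -0.17, with an approximate counting interval of -0.25 to -0.09, and the ratio of ETFB to ETFA by TPM was 2.14 and 2.02. By TPM the 3 log2 changes were smaller, from -0.20 to -0.12.

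The enzymes from hydration to thiolysis were also lower in reads, all 5 beyond counting error, where 26.1% of all genes with at least 100 reads were. Such calls depend on depth, and by TPM HADHA (0.03) and HADHB (0.01) were not lower. ECHS1, the short-chain enoyl-CoA hydratase, had 3729 reads against 2345 after knockdown, with a log2 change of -0.62 (-0.70 to -0.55), the lowest of the 29 genes. Its TPM values were 184 and 135. HADH, the dehydrogenase for medium and short chains, had 934 and 680 reads and a log2 change of -0.41 (-0.55 to -0.26). ACAA2, a mitochondrial thiolase, had 1741 and 1475 reads and a log2 change of -0.19 (-0.29 to -0.09). ECHS1, HADH and ACAA2 stayed below 0 in each scaling and by TPM, where ACAA2 was at -0.05.

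HADHA and HADHB encode the alpha and beta subunits of the mitochondrial trifunctional protein, which carries out the last steps on long chains. HADHA had 4001 reads against 3428 after knockdown, with a log2 change of -0.17 (-0.24 to -0.11). HADHB had 2148 and 1823 reads and a log2 change of -0.19 (-0.28 to -0.10). By TPM the genes were at 75.9 and 77.5, and at 63.2 and 63.8, so that their small difference in reads changed sign. The changes of the partners differed by 0.01, with an approximate counting interval of -0.10 to 0.13, and the ratio of HADHA to HADHB by TPM was 1.20 and 1.21. The genes stand head to head on chromosome 2, with 306 bases between their RefSeq starts at 26244632 and 26244939 of GRCh38.p14, HADHA on the minus and HADHB on the plus strand. The 194 bases that lie before both starts in the RefSeq windows are shown for this shared position, on the strand of HADHB, with the GC box (here as its complement) in capitals.

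HADHA and HADHB, chr2:26244689-26244882: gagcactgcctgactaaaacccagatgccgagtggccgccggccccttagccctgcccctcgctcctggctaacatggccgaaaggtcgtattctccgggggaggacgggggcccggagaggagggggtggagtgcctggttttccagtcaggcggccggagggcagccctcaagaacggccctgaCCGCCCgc

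Unsaturated fatty acids need extra enzymes to move or reduce their double bonds. All 3 of these genes were lower in reads beyond counting error, where 26.1% of all genes with at least 100 reads were. ECI1, an enoyl-CoA isomerase of mitochondria, had 1477 reads against 979 after knockdown, with a log2 change of -0.54 (-0.66 to -0.43). ECI2, an isomerase of peroxisomes and mitochondria, had 1196 and 879 reads and a log2 change of -0.39 (-0.52 to -0.27). DECR1, the mitochondrial dienoyl-CoA reductase, had 829 and 629 reads and a log2 change of -0.35 (-0.50 to -0.20). By TPM the values were 84.1 and 61.5 for ECI1, 60.5 and 51.9 for ECI2 and 47.0 and 42.4 for DECR1, all lower in Huh7-si.

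Peroxisomes shorten very long and branched chains. ACOX2, an oxidase of branched chains and bile acid intermediates, had 348 reads against 239 after knockdown, with a log2 change of -0.49 (-0.74 to -0.25). ACAA1, the peroxisomal thiolase, had 2648 and 2227 reads and a log2 change of -0.20 (-0.28 to -0.12), with 111 and 110 TPM. HSD17B4, the D-bifunctional protein, had 3643 and 3131 reads and a log2 change of -0.17 (-0.24 to -0.10). EHHADH, the L-bifunctional protein and a classical PPARA target, had 639 and 695 reads and a log2 change of 0.17 (0.01 to 0.33). EHHADH alone of these 4 genes was higher in reads, its interval came close to 0, and it was at -0.04 with median-of-ratios scaling. HSD17B4 was at 0.03 by TPM.

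**Figure D3:**
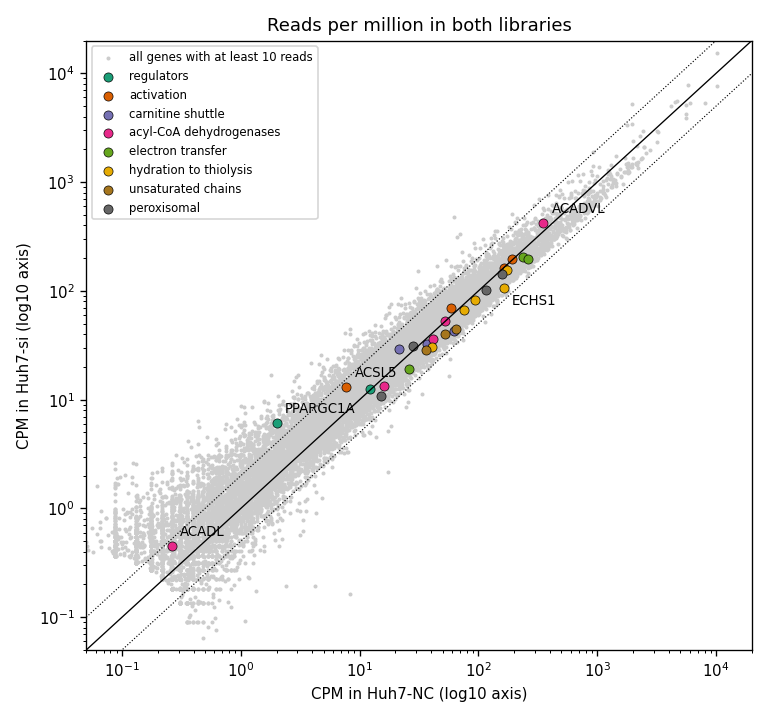
CPM in Huh7-si against CPM in Huh7-NC on log10 axes, for all genes with at least 10 reads over both libraries and reads in each (grey) and for the 29 genes by role. The solid line marks equal CPM and the dotted lines 2-fold. PPARGC1A (2.01 and 6.16 CPM) lies above the upper dotted line, and most of the abundant enzymes lie just under the solid line.

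Levels were summed over the enzymes to describe the pathway's total transcripts. The 29 genes together held 58535 and 52042 reads. By TPM the sum went from 2292 to 2381, the opposite direction, and the difference of ACADVL alone, from 328 to 584 TPM, exceeded this difference of 88.5 TPM. For the electron transfer genes the sum of TPM was 848 and 753, for hydration to thiolysis 415 and 356, and for unsaturated chains 192 and 156, all lower in Huh7-si. For the acyl-CoA dehydrogenases it was 379 and 638, and for activation 127 and 155. The carnitine shuttle was at 75.1 and 63.2, and the peroxisomal genes at 254 and 257.

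Change in these libraries went with gene length, and the members were therefore set beside genes of like length. Over 20 bins of protein-coding genes, the median log2 change ran from -0.37 in the shortest bin to 0.70 in the longest. The median length of the 29 genes was 2382 bases, against 3024 bases for protein-coding genes with at least 10 reads. Relative to genes of like length, the median of the members was -0.28, and 22 of the 29 lay below the median of their bin. Relative to its bin, PPARGC1A (6288 bases) was at 1.17 and ACSL5 at 0.57, while ETFB (3551 bases) was at -0.58 and ACOX2 at -0.52. The value of ETFB rests on its listed length, yet it had the fewest reads per unit of TPM of the members (10.3 and 8.77). The shorter ECHS1 had 20.3 and 17.4, so the listed length of ETFB may not be the one behind its TPM. ETFB was not alone in this. ACOX2 (2297 bases) had 19.6 and 15.2 reads per unit of TPM, and DECR1 (2760 bases) 17.6 and 14.8. PPARA (1558 bases) had 133 and 136. All values relative to genes of like length, including the median of -0.28 and the count of 22, rest on listed lengths. ECHS1, at 1277 bases the shortest member, was at -0.42 relative to its bin and at -0.62 without this adjustment. Likewise ECI1 was at -0.40 against -0.54, ECI2 at -0.19 against -0.39 and ETFA at -0.07 against -0.22. The adjustment moved other lower members the opposite way. Without it ETFB was at -0.39 and ACOX2 at -0.49, and DECR1 went from -0.35 to -0.47. ACSL3 and ACSL4, long genes whose CPM did not differ beyond counting error, were at -0.43 and -0.30. The part of length in these differences was not tested.

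**Figure D4:**
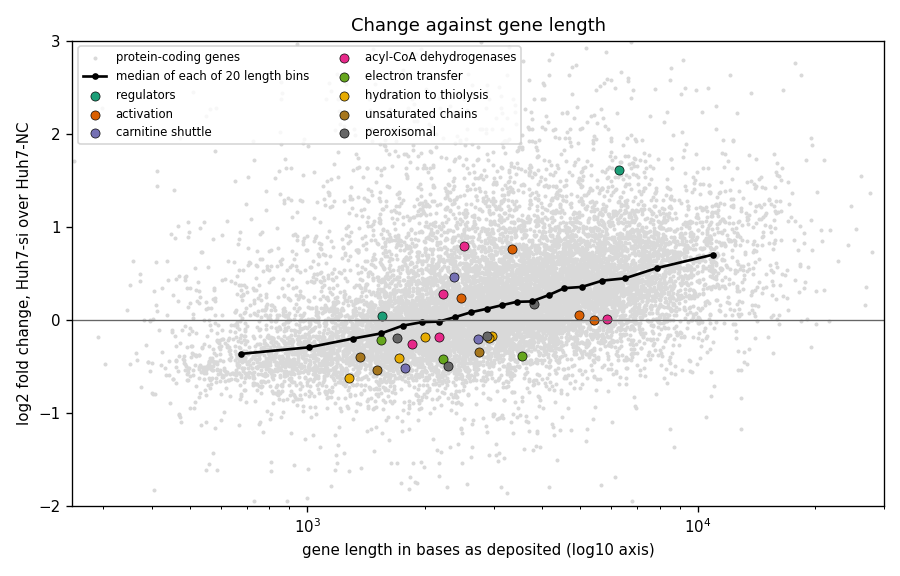
Log2 change of CPM against gene length on a log10 axis, for protein-coding genes with at least 10 reads (grey) and the 29 genes by role, drawn between -2 and 3. The black line joins the medians of 20 length bins, from -0.37 to 0.70. Most members lie under the line, and PPARGC1A (1.61) lies farthest above it.

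Of the enzymes of ketone body metabolism, which are not members, 4 are described. ACAT1, the mitochondrial thiolase that acts in both directions, had 1419 and 1091 reads and a log2 change of -0.33 (-0.45 to -0.22). BDH1, which forms beta-hydroxybutyrate, had 123 and 89 reads and a log2 change of -0.42 (-0.83 to -0.01), and BDH2, a cytosolic relative, 458 and 357 reads and -0.31 (-0.51 to -0.11). OXCT1, which consumes ketone bodies outside liver, had 152 and 180 reads and a log2 change of 0.29 (-0.03 to 0.61). ACAT1, BDH1 and BDH2 were thus lower in reads beyond counting error, by less than 2-fold, and OXCT1 was within it. Of all genes with at least 100 reads, 26.1% were lower in this way. By TPM the log2 change of BDH1 was 0.03, the opposite sign, that of ACAT1 -0.02 and that of BDH2 -0.11. That of OXCT1 was 0.73, with 2.70 and 4.47 TPM.

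Other genes of the pathway were counted from 4 further lists. Over these 4 lists, 5 of 44 genes with at least 10 reads were at least 2-fold higher, near the 12.5% of all genes. Among protein-coding genes 1232 of 14088 were. None of the 44 was 2-fold lower, where all genes had 1.16%. Of 13 other peroxisomal genes with at least 100 reads, 7 were lower beyond counting error and 2 higher, and the median over all 14 was -0.08. Of 8 genes of other mitochondrial oxidation and its control at that depth, 6 were higher beyond counting error and 1 lower, where all genes had 45.9% and 26.1%. The median over all 10 was 0.76, and 0.35 relative to genes of like length. This list joins enzymes with genes of control, and it includes CPT1C and ACSL6, which had few reads. Its median therefore does not describe oxidation enzymes alone. One of the 5 genes at least 2-fold higher had at least 100 reads, CPT1B, the muscle form of CPT1, with 74.6 and 163 reads and a log2 change of 1.18 (0.77 to 1.58). The read-through gene CHKB-CPT1B, which shares its exons and strand, had 243 and 580 reads, so the division of reads between them is uncertain. The other 4 were ABCD2 (12 and 28 reads), CPT1C (3 and 23 reads), ACSL6 (4.93 and 16.1 reads) and VNN1 (12 and 42 reads), which are named after their values were seen. CPT1A made up 53.4% of the TPM of the 3 CPT1 genes in Huh7-NC and 44.2% in Huh7-si, and CPT1B 39.0% and 51.0%.

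Regulators and targets of PPARA outside oxidation were mixed. Of 11 other regulators 5 were higher and 3 lower beyond counting error, near the shares of all genes (45.9% and 26.1%). Their median was 0.12 by total reads. It was below 0 both by TMM (-0.08) and against the bins of length (-0.16). Of 7 target genes with at least 100 reads 2 were higher and 2 lower, with a median of 0.05 over the 9 with at least 10 reads, which was -0.15 with TMM scaling. PPARGC1B, the relative of PPARGC1A, had 65 and 119 reads and a log2 change of 0.92 (0.47 to 1.38), 0.22 above genes of like length. FABP1, the liver fatty acid binding protein, had 4617 and 2946 reads and a log2 change of -0.60 (-0.67 to -0.53), or -0.23 relative to genes of like length. PLIN2, a lipid droplet protein, had 6463 and 6948 reads and a log2 change of 0.15 (0.10 to 0.20), which was -0.05 with TMM scaling. PDK4 had 30 reads in each library, and FGF21 had 0 and 1. These 5 genes were named after their values were seen.

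**Figure D5:**
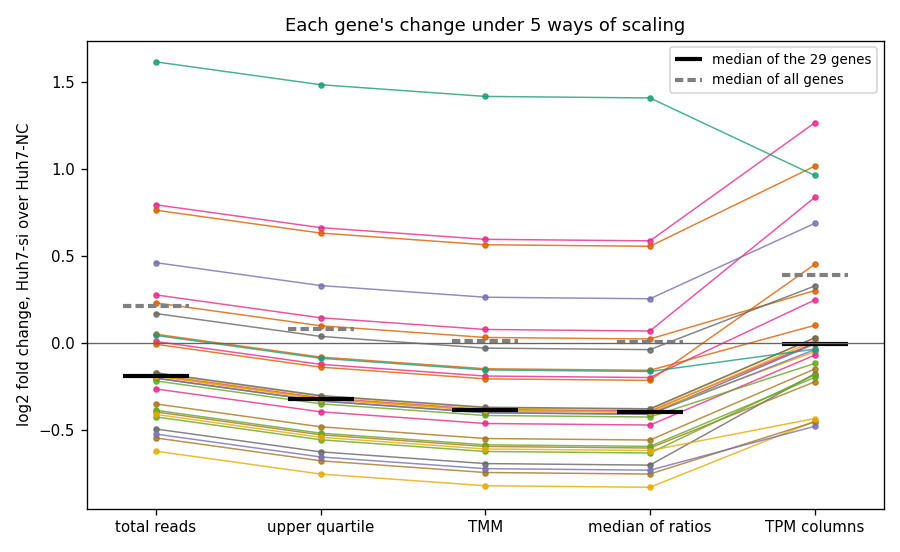
Log2 change of each of the 29 genes (lines colored by role as in the other plots) under total reads, upper-quartile, TMM and median-of-ratios scaling and by the deposited TPM values. Black bars are the median of the 29 genes and grey dashed bars that of all genes. The first 4 ways shift all genes alike, so the gap between the bars is the same in them by construction, and only the TPM column can change it. The bars are at -0.19 and 0.21 with total reads and at -0.0048 and 0.39 by TPM.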

How the data were processed

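RNA-seq of Huh7-NC and Huh7-si cells was analyzed, with 1 library each. The authors deposited 1 table that holds, by gene, an estimated count before any scaling, TPM and a length. The submitters' processing notes list Bowtie2 2.0.6, TopHat2 2.0.12 and GRCh37, and the counting tool, annotation and strandedness are not given in the sources used here. The deposited columns of fold change, p-value and calls were not used, and the table held 0 further columns of single libraries.

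CPM were taken over the total of estimated counts, with no pseudocount. Intervals are exact 95% Clopper-Pearson intervals on counts rounded to whole numbers. A gene was called at a fold of 2 (or 1.5) when its interval also left out no change, among genes with at least 10 reads over both libraries. Differences beyond counting error were counted among genes with at least 100 reads. With 1 library in each group edgeR and DESeq2 could give no test, and both were used for scaling alone. Intervals on the difference of 2 genes' changes are normal approximations. The members and lists were chosen with earlier results of these data known, and so were the gene pairs and motifs. All 29 members are named. For the other lists the rule was to name ketone body enzymes and genes past 2-fold with at least 100 reads. Further genes of these lists were named after their values were seen. Some results of the list of ketone body enzymes are not reported here. Gene types, positions and exon overlaps are from GENCODE release 29 (GRCh38), which holds 94.8% of the identifiers, and promoter sequences from RefSeq (GRCh38.p14). The calculations were tested on simulated data. Python 3.11.15, NumPy 2.4.6, pandas 2.3.3, SciPy 1.17.1, matplotlib 3.10.9, R 4.3.3, edgeR 4.0.16 and DESeq2 1.42.0 were used.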

Additional observations from a re-analysis of the deposited data

How the results depend on the processing

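The median log2 change of the 29 genes was -0.19 with total reads. TMM gave -0.39, the median of ratios -0.39, the upper quartile -0.32 and the TPM columns -0.0048. The scalings shift every gene by -0.20, -0.21 and -0.13 in that order, and the cause of the difference by TPM was not tested. The median ranged from -0.28 to -0.19 relative to genes of like length, with a pseudocount of 1 CPM, with no filter on low counts and with a minimum of 10 reads per library. The count of members at least 2-fold higher was 1, PPARGC1A, and remained so under the scalings, the pseudocount and the filters, while by the TPM columns, which have no counting interval, it was 2 and these were ACSL5 and ACADL in place of PPARGC1A. With a fold threshold of 1.5, 2 members were higher and 1 lower, against 1 and 0. Over all genes, 2248 were at least 2-fold higher and 208 lower, against 1584 and 351 with TMM, 1572 and 363 with the median of ratios, 3750 and 347 by TPM, 911 and 43 with the pseudocount, 1414 and 106 with the minimum per library and 4125 and 689 at 1.5-fold. The signs of 6 higher and 14 lower members were the same in each alternative run on single genes, and the sign of the other 9 (ACADM, ACADSB, ACSL3, ACSL4, EHHADH, HADHA, HADHB, HSD17B4 and PPARA) depended on the scaling, or for ACADM on equal TPM values. The pseudocount cannot change a sign, and TMM, median-of-ratios and upper-quartile scaling shift every gene alike, so equal signs in these runs show little. Depth limited ACADL, with 16.1 reads over both libraries. It is among the 6 higher members, though its interval of -0.82 to 2.53 resolves no direction. Because each condition has 1 library, leaving out a library was not possible, and differences between the libraries other than the siRNA cannot be told apart from it.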
